A study of Mus musculus with 9 samples.

Results

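The forkhead genes of the mouse, named Fox with a subfamily letter and a number, were examined for peaks of N6-methyladenosine (m6A), a methyl mark on adenosines of messenger RNA. Members were all protein-coding genes of the mm10 (GRCm38) annotation whose symbol is Fox, one letter from a to s, a number and at most one further letter. The rule gave 44 Fox genes among 21900 protein-coding genes, and it used no measured value. Peaks were assigned to a gene when they lay within 500 bp of its body, the stretch between its annotated ends. The study compared wild-type, Mettl3 knockout and Zc3h13 knockout mouse embryonic stem cells (mESCs), with 2 m6A immunoprecipitations and 1 input per genotype. The results rest on the 2 wild-type m6A samples, each with its own list of peaks. Peak names inside the replicate 2 list name wild-type cells, while those inside the replicate 1 list carry the tag H4, which the labels do not explain, so that all replicate 1 values are taken as wild type from the sample label alone. The 7 other libraries, those of the knockout cells and the inputs, were not analysed here. The wild-type cells carried the background labelled Rosa26:CRE, Bir ligase, which expresses a bacterial biotin ligase, and were grown on gelatin in medium conditioned with LIF. Labels call the 2 samples replicates, but nothing states that they came from separate cultures.

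Forkhead proteins are transcription factors that share a winged-helix DNA-binding domain. FoxA proteins open closed chromatin in the endoderm, FoxO proteins are held out of the nucleus when insulin signalling activates Akt, Foxd3 acts in pluripotent cells and neural crest, and most other subfamilies act in particular embryonic tissues. The m6A mark is deposited on nascent RNA by Mettl3 and Mettl14 with a larger set of partner proteins, mostly within a GGAC or related sequence, and is typically found near stop codons, in 3′ untranslated regions and in long exons. In m6A-RIP-seq an antibody enriches methylated RNA, so a gene can have a peak only if its RNA is present, and a gene without one may be unmethylated or not expressed.

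The replicate 1 list held 22531 peaks and the replicate 2 list 5040, and the number of reads behind either list is unknown. Among all 10 embryonic stem cell markers listed, 5 had a replicate 1 peak (Esrrb, Klf4, Nanog, Sox2 and Zfp42) and 0 had a peak in both lists, against 41.3% and 16.1% of protein-coding genes. Of 5 feeder fibroblast markers, 2 had a replicate 1 peak (Pdgfrb and Thy1), and Pdgfrb had one in both. Peak lists hold no expression values, so marker levels could not be compared.

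Replicate 1 peaks overlapped the RefSeq promoter window of 4 Fox genes, among the 28 with a window. At all 4 genes the peak began upstream of the annotated start, and the 3 windows with the most covered bases are shown. Sequences are from RefSeq (GRCm38.p6), 5′ to 3′ on the gene's strand, and run 250 bases before to 30 bases after the annotated start. Capitals mark GGACT, the core motif in which m6A is most often found, or its reverse complement AGTCC.
Foxd3, chr4:99656049-99656328, + strand: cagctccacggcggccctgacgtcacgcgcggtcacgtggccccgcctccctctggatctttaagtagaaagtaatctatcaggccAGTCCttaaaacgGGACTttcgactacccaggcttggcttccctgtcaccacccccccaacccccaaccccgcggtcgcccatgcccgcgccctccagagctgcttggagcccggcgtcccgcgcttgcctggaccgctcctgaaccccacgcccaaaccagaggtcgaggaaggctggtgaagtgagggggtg
Foxj3, chr4:119539411-119539690, + strand: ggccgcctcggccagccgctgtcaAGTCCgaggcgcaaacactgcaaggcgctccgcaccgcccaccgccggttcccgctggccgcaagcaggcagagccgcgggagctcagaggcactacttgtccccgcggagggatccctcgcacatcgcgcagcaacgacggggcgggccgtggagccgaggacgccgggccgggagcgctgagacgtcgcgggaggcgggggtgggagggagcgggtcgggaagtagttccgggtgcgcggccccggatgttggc
Foxd1, chr13:98353995-98354274, + strand: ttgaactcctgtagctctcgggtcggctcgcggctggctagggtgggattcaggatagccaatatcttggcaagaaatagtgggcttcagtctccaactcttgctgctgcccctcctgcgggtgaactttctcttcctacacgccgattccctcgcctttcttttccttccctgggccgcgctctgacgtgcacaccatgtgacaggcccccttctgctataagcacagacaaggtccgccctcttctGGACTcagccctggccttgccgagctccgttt
Of the 280 bases of the Foxd3 window, 280 lay in a replicate 1 peak and 279 in a replicate 2 peak. Of the Foxj3 window, 244 bases lay in a replicate 1 peak, and of the Foxd1 window 168. The fourth promoter, that of Foxi3, had 117 bases in a replicate 1 peak. Only the Foxd3 window had coverage in replicate 2. The promoter table matched 28 of the 44 Fox genes, with 33 windows, and a window need not lie at the outer end of the gene body. A replicate 1 peak spanned the outer 5′ end of Foxn3 and ran 344 bp beyond it, away from the window of that gene. Peaks also crossed an end of Foxn2 and of Foxo6, by 264 and 537 bp. Replicate 1 peaks touched 4 of these windows (12.1%) and 7.96% of the 21263 windows of protein-coding genes. The replicate 2 list touched 1 of the 33 Fox windows, against 1.01% of all windows. GGACT or AGTCC stood in 23 of the 33 Fox windows (69.7%) and in 43.8% of all windows. Both strands were searched and a window was counted once. AGTCC on the gene's strand, the only marked stretch of the Foxj3 window, is not GGACT in that gene's RNA. Most bases of a window also lie before the annotated start, so these shares do not count possible m6A sites.

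Peaks were common at Fox genes in replicate 1 and less so in replicate 2. In replicate 1, 31 of 44 Fox genes had a peak (70.5%, exact 95% interval 54.8 to 83.2%), against 41.3% of protein-coding genes. In replicate 2, 12 Fox genes had one (27.3%, 15.0 to 42.8%), against 16.9% of protein-coding genes. All 12 also had a replicate 1 peak, so 12 Fox genes had a peak in both lists (27.3%), against 16.1% of protein-coding genes. The background thus lay outside the Fox interval in replicate 1 and inside it for replicate 2 and for both. Of the Fox genes with a replicate 1 peak, 38.7% also had a replicate 2 peak, against 39.1% of all protein-coding genes, so the rate at which a gene recurred was alike in the 2 sets. Intervals cover counting error only and treat genes as independent, so a background outside or inside them is not a test. With the replicate 1 list reduced to the 5040 peaks of highest −log10 q, the length of the replicate 2 list, 17 Fox genes had a replicate 1 peak (38.6%), against 17.3% of protein-coding genes. Fox genes with a peak in both replicates included Foxa2, Foxa3, Foxd3, Foxe1, Foxi3, Foxj1, Foxk1, Foxn4, Foxp4, Foxq1 and Foxr2. Foxa1, Foxc1, Foxc2, Foxd1, Foxd2, Foxf1, Foxf2, Foxj3, Foxk2, Foxl2, Foxm1, Foxn2, Foxn3, Foxo1, Foxo3, Foxo4, Foxo6, Foxp1 and Foxs1 had one in replicate 1 only, and 0 Fox genes had one in replicate 2 only. The 13 Fox genes without a peak were Foxb1, Foxb2, Foxd4, Foxe3, Foxh1, Foxi1, Foxi2, Foxj2, Foxl1, Foxn1, Foxp2, Foxp3 and Foxr1.

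**Figure D1:**
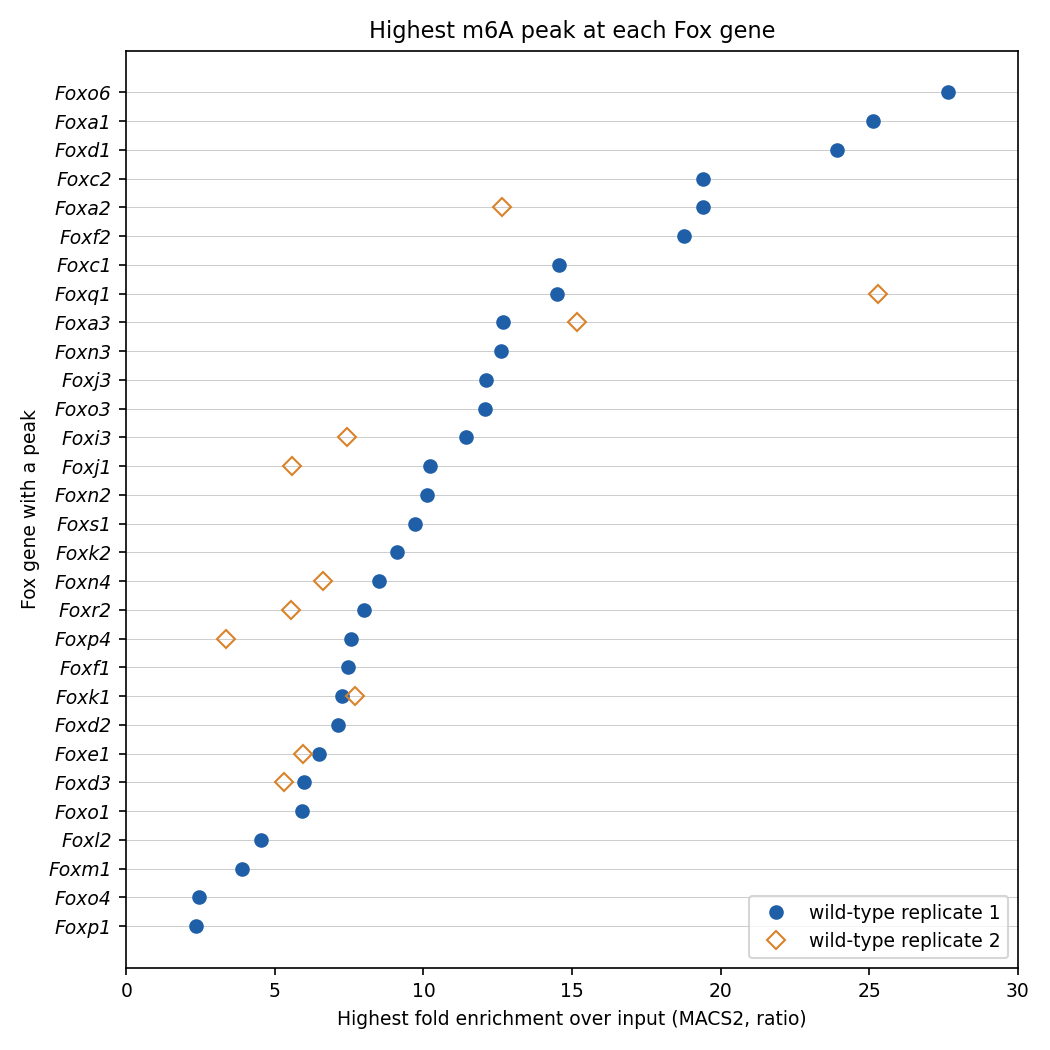
Highest MACS2 fold enrichment over input (horizontal axis, ratio) of the peaks at each of 30 Fox genes with a peak (vertical axis). Filled circles are wild-type replicate 1 and open diamonds wild-type replicate 2. Of the genes drawn, Foxo6 (27.6) leads in replicate 1 and Foxq1 (25.3) in replicate 2, and 8 of the 11 genes with both symbols are higher in replicate 1. The symbols of a gene need not be of the same peak. At Foxe1 and Foxp4 the replicate 1 symbol is an unshared peak, and their shared peaks are higher in replicate 2. At Foxn4 the symbols are of different shared pairs.

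Among the FoxA genes, Foxa2 and Foxa3 had peaks in both replicates and Foxa1 only in replicate 1. At Foxa2 (chr2, 148042877 to 148046969, minus strand), the shared peak had a fold enrichment over input of 19.4 in replicate 1 (148043437 to 148045024) and 12.6 in replicate 2 (148044244 to 148044945). Its −log10 q, a peak's significance after MACS2's correction, was 153.4 and 18.4. The summits were 704 bp apart, 845 and 1549 bp from the 3′ end. Foxa3 (chr7, 19013283 to 19023539, minus strand) had one wide replicate 1 peak (19014077 to 19015275, fold enrichment 12.7, −log10 q 197.0) that overlapped 2 replicate 2 peaks. The stronger of these (19014607 to 19015244) reached 15.2 in fold enrichment and 24.3 in −log10 q, with its summit 10 bp from that of replicate 1. The other (19014196 to 19014505) had 5.52 and 5.89. Foxa3 was thus among the 3 genes, with Foxk1 and Foxq1, whose highest fold was higher in replicate 2. Foxa1, a further pioneer factor of endoderm (chr12), had a single replicate 1 peak (57541952 to 57543561), enriched 25.1-fold at a −log10 q of 107.8, and 0 replicate 2 peaks.

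Foxd3 (chr4, 99656299 to 99658671) was covered almost end to end. The replicate 1 peak (99655983 to 99658511) began 316 bp before the annotated start and covered 93.3% of the gene body, and the replicate 2 peaks together covered 64.6%. Its fold enrichment was moderate in both lists, 5.97 in replicate 1 and 5.32 for the larger replicate 2 peak (99656050 to 99657370), while its −log10 q of 218.7 ranked 171 of the 22531 replicate 1 peaks and its 15.9 ranked 509 of the 5040 in replicate 2. A second replicate 2 peak (99657860 to 99658319) was enriched 3.85-fold at a −log10 q of 5.50.

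Foxq1 (chr13, 31558170 to 31560976), known for its role in hair and epithelia, had the strongest Fox peak of replicate 2. That peak (31558252 to 31560005) was enriched 25.3-fold at a −log10 q of 47.4, ranking 6 in the list by each measure. The replicate 1 peak (31558237 to 31560102) had 14.5 and 170.0, and the summits were 69 bp apart.

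Foxe1, Foxi3 and Foxj1 are short genes as well. Foxe1 (chr4, 46343644 to 46345774), a thyroid factor, had a shared peak with a fold of 5.86 in replicate 1 (46344372 to 46345749, −log10 q 26.6) and 5.95 in replicate 2 (46344792 to 46345419, −log10 q 4.25), and its summits were 263 bp apart. A second replicate 1 peak at Foxe1, of fold 6.48, also lay within 500 bp of Gm12446. It carries recurring values, described below, held by 186 peaks of the list. Foxi3 (chr6, 70956606 to 70961066, plus strand), which acts in ectodermal placodes, had a shared peak with a fold of 11.4 in replicate 1 (70960264 to 70961711, −log10 q 148.6) and 7.42 in replicate 2 (70960314 to 70961433, −log10 q 12.6). The summits were 4 bp apart and lay 62 and 58 bp beyond the annotated 3′ end. Foxj1 (chr11, 116330704 to 116335499), the master factor of motile cilia, had 2 shared peaks. The first had a fold of 10.2 in replicate 1 (116331468 to 116332676, −log10 q 96.4) and 5.57 in replicate 2 (116331466 to 116332293, −log10 q 9.65). The second had 3.60 in replicate 1 (116334256 to 116334553, −log10 q 6.27) and 5.20 in replicate 2 (116334255 to 116334901, −log10 q 3.23). The summits lay 2 and 4 bp apart, so the summits nearly coincided.

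**Figure D2:**
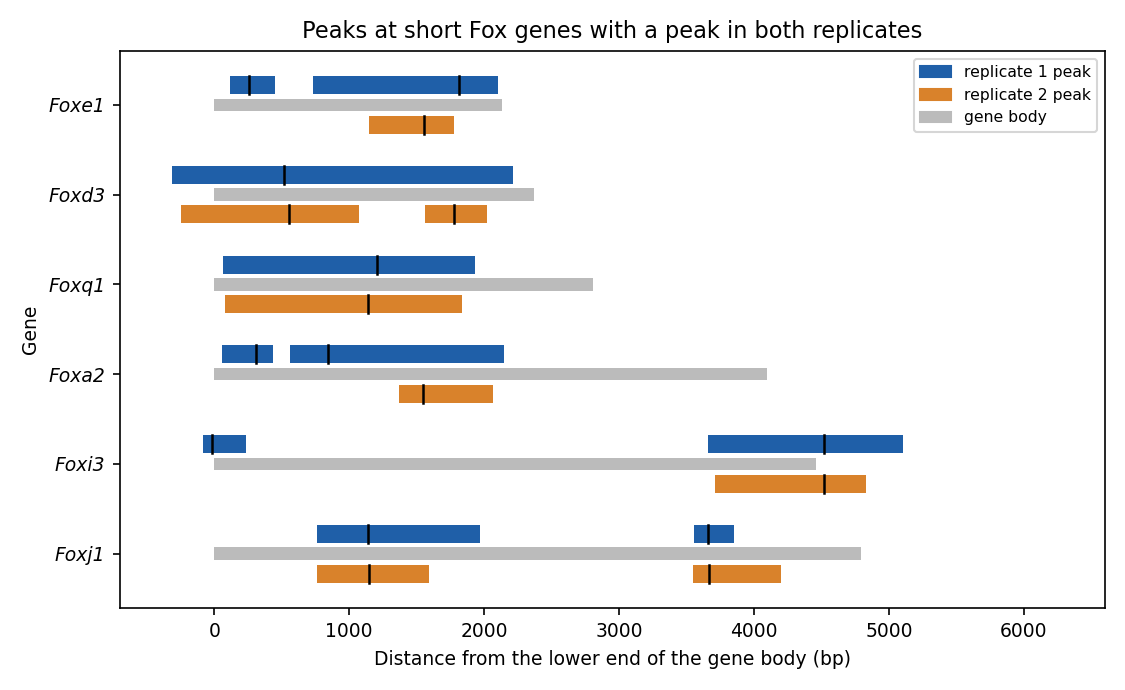
Peaks at 6 Fox genes under 5 kb with a peak in both replicates, drawn by distance from the lower end of the gene body (horizontal axis, bp). Grey bars are gene bodies, blue bars replicate 1 peaks, orange bars replicate 2 peaks and black ticks summits. At Foxd3 the replicate 1 peak spans nearly the whole body (93.3%), and at Foxi3 both summits of the shared peak lie beyond the higher end.

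The other 4 genes with a peak in both replicates were longer, and their shared peaks lay toward one end. Foxk1 (chr5, 142401497 to 142462015), which represses autophagy and metabolic genes, had a shared peak with a fold of 7.27 in replicate 1 (142456367 to 142457438, −log10 q 148.1) and 7.69 in replicate 2 (142456487 to 142457309, −log10 q 12.2). A second pair had 4.27 in replicate 1 (142457578 to 142459130, −log10 q 65.1) and 3.28 in replicate 2 (142457842 to 142458311, −log10 q 2.33), with summits 911 bp apart. The first pair's summits were 2 bp apart, 4936 and 4938 bp from the higher end of the gene. Foxn4 (chr5, 114254164 to 114274418, minus strand), needed for retinal amacrine cells, also had 2 shared pairs. One had 8.50 in replicate 1 (114254331 to 114255975, −log10 q 171.7) and 4.09 in replicate 2 (114254838 to 114255628, −log10 q 4.72), and the other had 6.50 (114256676 to 114257088, −log10 q 61.1) and 6.61 (114256676 to 114257004, −log10 q 5.61). Their replicate 1 summits lay 1244 and 2697 bp from the 3′ end. Foxp4 (chr17, 47867133 to 47924632, minus strand), a lung and forebrain factor, had a weak shared peak 1422 bp from the 3′ end by its replicate 1 summit, with a fold of 2.68 in replicate 1 (47868359 to 47869032, −log10 q 48.5) and 3.36 in replicate 2 (47868348 to 47869020, −log10 q 5.32). The highest Foxp4 fold of replicate 1, 7.55, belonged to another peak with no replicate 2 partner. Foxr2 (chrX, 153114581 to 153132861, plus strand), an X-linked gene known as an oncogene in human tumours, had 8.02 in replicate 1 (153129796 to 153130604, −log10 q 47.5) and 5.55 in replicate 2 (153129929 to 153130530, −log10 q 4.88), with summits 2 bp apart.

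All 17 replicate 2 peaks at Fox genes overlapped a replicate 1 peak by at least 1 bp (100%, exact 95% interval 80.5 to 100%), against 92.1% of the 4800 replicate 2 peaks at protein-coding genes. In the other direction, 15 of 79 replicate 1 peaks overlapped (19.0%, 11.0 to 29.4%), against 20.5% of 20000. Both intervals count peaks as independent, although several can lie in one gene (10 at Foxn3), so they may be too narrow. The lists differ in length, so neither share is a rate of reproducibility on its own. The 17 overlapping pairs had summits a median of 10 bp apart, as did the 4684 overlapping pairs of the whole lists, and 9 of 17 lay within 10 bp (52.9%, against 51.4%). Fold was higher in replicate 1 in 10 of the 17 pairs.

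The 19 Fox genes with a peak in replicate 1 only included strong peaks. Foxo6, a FoxO gene of the brain (chr4), led them with a 27.6-fold peak whose −log10 q of 230.6 ranked 124 in the list, at 120267289 to 120268325. Its further peaks had folds of 20.01 and 9.55, and the weaker one was also near Gm52678. Foxd1, a factor of kidney stroma (chr13), had 23.9 (98354107 to 98355381, −log10 q 77.5). Foxc2 and Foxc1, which act in mesoderm and vessels, had 19.4 (chr8, 121116570 to 121117447, −log10 q 56.5) and 14.6 (chr13, 31808406 to 31809173, −log10 q 37.1). Foxf2, a factor of gut mesenchyme, had 18.8 (chr13, 31630437 to 31630990, −log10 q 55.1). Foxo6, Foxd1, Foxc2, Foxc1 and Foxf2 all lacked a replicate 2 peak. Foxn3 (chr12), whose human gene is known as a checkpoint suppressor, carried the most peaks of any Fox gene, 10, and its highest fold was 12.6 (99563651 to 99564011, −log10 q 30.6), near Gm26839. Foxj3 (chr4) had 12.1 (119538693 to 119539654, −log10 q 33.9) at the promoter shown above, in a peak that lay wholly before the annotated start and within 500 bp of Frg2f1. Foxo3 (chr10) also had 12.1 (42276993 to 42277753, −log10 q 45.0), in a peak wholly outside the body with its summit 766 bp before the start. Foxo3 had 5 more peaks inside its body, of folds 3.25 to 6.96. Foxn2 (chr17) had 10.1 (88440844 to 88441301, −log10 q 21.6). The peaks given here for Foxc1, Foxn3 and Foxn2 carry recurring values, described below, held by 14, 26 and 16 peaks of the list. The other 9 genes, Foxs1, Foxk2, Foxf1, Foxd2, Foxo1, Foxl2, Foxm1, Foxo4 and Foxp1, had highest folds of 9.71 down to 2.35.

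By subfamily, the counts were small, and they are read against the 41.3% of protein-coding genes with a replicate 1 peak and the 16.1% with a peak in both. FoxA had a replicate 1 peak at 3 of 3 genes and a peak in both at 2, FoxO at 4 of 4 and 0, FoxC and FoxF at 2 of 2 each and 0, and FoxK at 2 of 2 and 1. FoxD and FoxN each had 3 of 4 and 1, FoxP 2 of 4 and 1, FoxJ 2 of 3 and 1, and FoxI 1 of 3 and 1. FoxE and FoxR had 1 of 2 and 1 each, and FoxL 1 of 2 and 0. Of the subfamilies with 1 gene, FoxQ had a peak in both replicates, FoxM and FoxS in replicate 1 only, and FoxH in neither. FoxB had 0 of 2. The FoxO genes, which transmit insulin signalling, had replicate 1 peaks with highest folds of 27.6 at Foxo6, 12.1 at Foxo3, 5.92 at Foxo1 and 2.44 at Foxo4, and they had no peak in replicate 2. With 1 to 4 genes each, differences between subfamilies were not tested.

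Fox genes were shorter than protein-coding genes at large, with a median body length of 5193.5 bp (1311 to 597405 bp), against 17146 bp. Fox genes with a peak in both replicates had a median of 4628.5 bp, against 23629 bp for protein-coding genes with a peak in both. Fox genes with a replicate 1 peak only had 7402 bp, against 27316 bp, and those without a peak 3749 bp, against 12100.5 bp. Within length classes the Fox shares in replicate 1 stood above those of all genes. Under 5 kb, 14 of 22 Fox genes had a replicate 1 peak (63.6%, exact 95% interval 40.7 to 82.8%), against 20.7% of 5047 protein-coding genes. Of those 14, 5 had only peaks with recurring values, described below, and without such peaks the count was 9 (40.9%, 20.7 to 63.6%), against 18.4%. In the same class, 7 Fox genes had a peak in both (31.8%, 13.9 to 54.9%), against 8.04%. At 5 to 20 kb, 6 of 8 Fox genes had a replicate 1 peak (75%, against 41.0%) and 2 a peak in both (25%, against 17.4%), or 1 without peaks of recurring values (12.5%, against 16.2%). At 20 to 100 kb the counts were 9 of 11 (81.8%, against 49.6%) and 3 (27.3%, against 18.8%). Over 100 kb, 2 of 3 Fox genes had a replicate 1 peak (66.7%, against 58.9%) and 0 a peak in both, against 21.0%. With all peaks counted, the all-gene share under 5 kb lay outside the Fox interval in replicate 1 and in both, and in each longer class inside it. Without peaks of recurring values, the replicate 1 all-gene share at 20 to 100 kb (45.2%) also lay outside the Fox interval (48.2 to 97.7%). These intervals treat genes as independent and hold no variation between libraries, so their position is not a test. In the longer classes they are wide, and an all-gene share inside them does not show equal shares. The share in both did not rise with length among Fox genes as it did among all genes, although the Fox classes hold 3 to 22 genes.

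**Figure D3:**
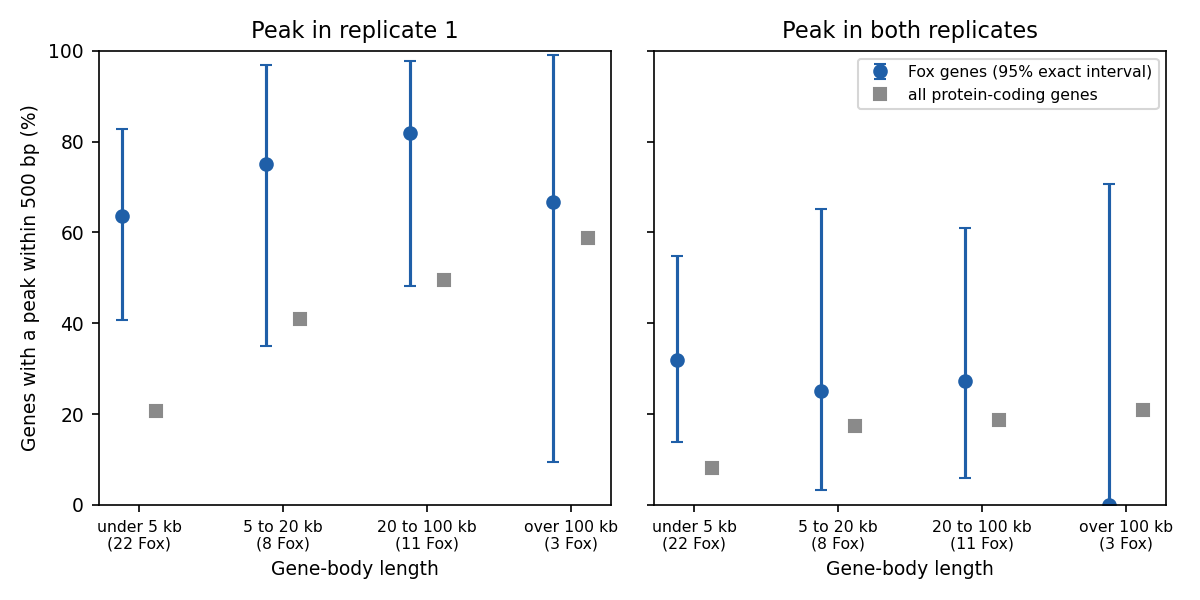
Percent of genes with a peak within 500 bp (vertical axis) by class of gene-body length (horizontal axis), for replicate 1 (left) and both replicates (right). Circles with exact 95% intervals are Fox genes and grey squares all protein-coding genes. Under 5 kb the Fox share in replicate 1 is 63.6% and the share of all genes 20.7%. Without peaks of recurring values, which the plot includes, these are 40.9% and 18.4%.

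Median fold enrichment was higher at Fox genes than at genes overall in replicate 1, and no test of this difference was possible with 2 samples of 1 group. The highest fold of a Fox gene had a median of 10.1, against 6.45 for protein-coding genes with a peak, and 16 of 31 Fox genes (51.6%) reached a fold of 10, against 25.9%. A fold of 20 was reached by 4 (12.9%), against 4.77%. Of the 16 Fox genes, Foxc1, Foxn3 and Foxn2 reached 10 only in peaks of recurring values, described below. Foxj3 and Foxo3 did so only in peaks wholly outside the gene body. The difference of the replicate 1 medians, 3.67, was 2.72 at a distance of 0 bp and 3.89 without recurring values. In replicate 2 the medians were 7.02 at Fox genes and 6.71 at all genes, and 3 of 12 Fox genes (25%) reached 10, against 16.8%. Taken over single peaks, the replicate 1 median was 6.48 at Fox genes and 5.19 at protein-coding genes, and the replicate 2 median was 5.57 at Fox genes (3.28 to 25.3) and 6.31 at protein-coding genes. Their significance was not higher, with median −log10 q of 29.5 against 31.0 in replicate 1 and 5.89 against 7.54 in replicate 2. They were wider, with medians of 583 bp against 452 bp in replicate 1 and 647 bp against 449 bp in replicate 2. Peaks of at least 1000 bp made up 19 of 79 Fox peaks in replicate 1 (24.1%), against 14.4% of all. Within the Fox genes, Spearman's rho of body length with highest fold was −0.10 and with the number of peaks 0.72 (31 genes of one library), against 0.20 and 0.27 over 9038 protein-coding genes.

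Part of the replicate 1 peaks carried values that recur through the list. A pair of fold and −log10 q held by 10 or more peaks was found at 21 of 79 Fox peaks (26.6%), against 16.4% of peaks at protein-coding genes. For example, one Foxd1 peak and the Foxf1 peak both had 7.45 and 12.02, as did 142 peaks in all. Of the 21, 0 overlapped a replicate 2 peak (1.76% of such peaks at all protein-coding genes did), while 15 of the other 58 did (25.9%, against 24.2%). All peaks of Foxc1, Foxd2, Foxf1, Foxl2 and Foxs1 in replicate 1 were of this kind, and each of these genes is under 5 kb. Without such peaks in either list, chosen after seeing the data, 26 Fox genes had a replicate 1 peak (59.1%, against 37.1% of protein-coding genes) and 11 a peak in both (25%, against 14.9%). The gene lost from both was Foxr2, whose replicate 2 peak carried values held by 10 peaks of that list. Input coverage is not in the peak lists, and its part in the recurring values was not tested.

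**Figure D4:**
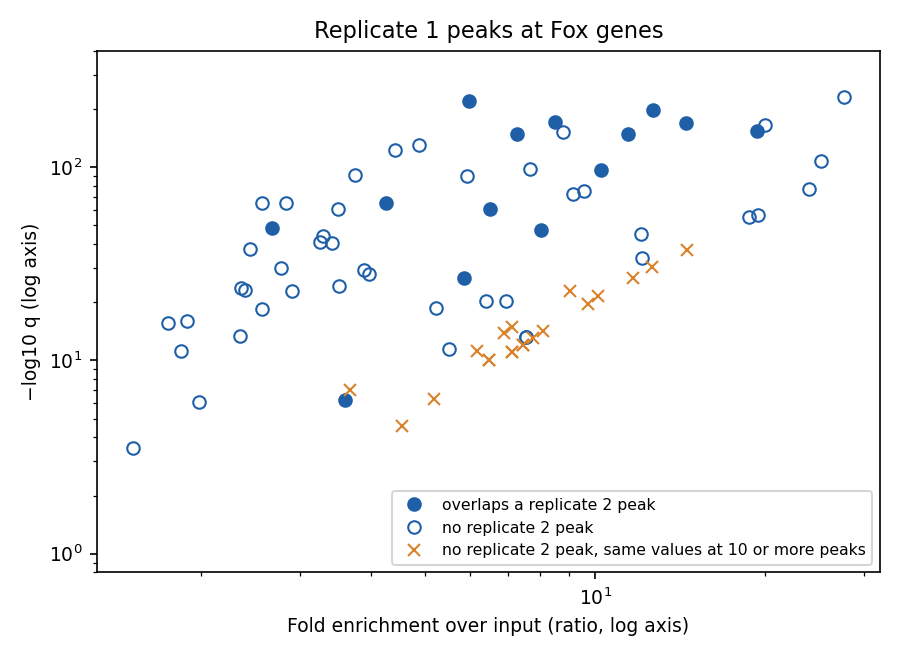
Fold enrichment (horizontal axis, ratio, log scale) against −log10 q (vertical axis, log scale) of 77 replicate 1 peaks at Fox genes. Filled circles overlap a replicate 2 peak, open circles do not, and crosses do not and carry values held by 10 or more peaks of the list. The 14 overlapping peaks drawn lie mainly at high −log10 q, and the 20 crosses at a median −log10 q of 12.5.

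For the 28 Fox genes with a known strand, 35 of 53 replicate 1 summits (66.0%) lay beyond the midpoint of the gene, toward its 3′ end, against 67.5% of 16737 at protein-coding genes. The last 10% of the body or the stretch beyond the 3′ end held 16 (30.2%), against 31.9%. In replicate 2, 9 of 10 (90%) lay beyond the midpoint, against 77.1%. The last 10% of the body or the stretch beyond the 3′ end held 3 (30%), against 44.0%. In each replicate this count includes a Foxi3 summit beyond the annotated 3′ end. In genes under 5 kb, 5 of 12 Fox summits in replicate 1 (41.7%) lay beyond the midpoint, against 52.6%, and in longer genes 30 of 41 (73.2%), against 68.7%. Over all lengths, replicate 1 summits at Fox genes thus lay toward the 3′ end about as often as at all genes. The replicate 2 shares rest on 10 peaks.

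Some Fox genes lie side by side. On chr13, Foxq1 and Foxf2 are 64839 bp apart and Foxf2 and Foxc1 175239 bp, and all 3 had a replicate 1 peak while only Foxq1 had one in both. On chr8, Foxf1 and Foxc2 are 28016 bp apart and had replicate 1 peaks, while Foxl1, 8789 bp from Foxc2, had none. On chr4, Foxd2 and Foxe3 are 15544 bp apart, and only Foxd2 had a peak.

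Fox genes were set beside other developmental transcription factor families. In the share with a replicate 1 peak they lay below Sox genes and above T-box and Hox genes. In the share with a peak in both they lay below Sox and T-box genes and above Hox genes. Their median highest fold in replicate 1 was the highest of the 4 families, by a small margin over T-box and Sox genes. A replicate 1 peak was found at 70.5% of 44 Fox genes, 89.5% of 19 Sox genes, 46.2% of 39 Hox genes and 52.9% of 17 T-box genes. A peak in both was found at 12 Fox genes (27.3%), 9 Sox genes (47.4%), 3 Hox genes (7.69%) and 6 T-box genes (35.3%). The median highest fold in replicate 1 was 10.1 at Fox, 9.39 at Sox, 7.77 at Hox and 9.48 at T-box genes. These differences between families were not tested.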

How the data were processed

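m6A-RIP-seq libraries were made from poly(A)-selected RNA of mESCs with an anti-m6A antibody and a directional kit. Per the labels and the study's methods, the authors aligned reads to mm10 with Bowtie, used SAMtools, and called peaks with MACS2 at default parameters for each wild-type immunoprecipitation against input. Versions are not given in the sources used here. The deposited files hold for each peak its position and summit, fold enrichment over input (a ratio), −log10 p and −log10 q as MACS2 wrote them, and a score, which the authors' lists give as an integer form of −log10 q and which was not used. The paper describes its wild-type peaks as immunoprecipitation over input in wild-type cells, and that genotype had 1 input. The input library behind each deposited list is not named in the sources used here. Replicates were called separately, not pooled. The number of reads is unknown, so no count-based precision can be given, and peaks carry no strand.

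Peaks were joined to gene bodies of the RefSeq mm10 annotation within 500 bp with Python 3.11.15, pandas 2.3.3, numpy 2.4.6 and scipy 1.17.1. Overlap was at least 1 bp. Shares of Fox genes, and of peaks at them that overlap, have exact Clopper-Pearson 95% intervals, which treat genes or peaks as independent. The single group of 2 samples allows no test, so counts and medians are given beside those over all protein-coding genes. The counting was tested on simulated data. The members and gene lists were chosen with earlier results of these data known. Every Fox gene is named except 1, which is counted but not reported here by name. Full values are given for those with a peak in both replicates and for the highest peak of the 10 highest by fold among those in replicate 1 only. In the other lists, genes in both replicates are named, up to 4 with values. Alternatives were distances of 0 and 2000 bp, a minimum −log10 q of 5, a minimum fold of 4, overlap of 50% of both peaks, summits within 100 bp, a replicate 1 list reduced to the length of replicate 2, the median over single peaks and leaving out each replicate. One more, chosen after seeing the data, left out peaks whose values recur in 10 or more peaks of the list.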

Additional observations from a re-analysis of the deposited data

How the results depend on the processing

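Under the alternatives, 62 values stayed within 1.5 times the reported value or, for shares of peaks, within its 95% interval, and 11 moved. Some of the 62 could not move, since reducing the replicate 1 list leaves the counts and folds of replicate 2 unchanged. The number of Fox genes with a peak in both replicates ranged from 12 to 31 when one replicate was left out, since a single list then decided the call. With the replicate 1 list reduced to the length of the replicate 2 list, 17 Fox genes had a replicate 1 peak (38.6%, against 17.3% of protein-coding genes) and 9 a peak in both (20.5%, against 10.7%), 70.6% of replicate 2 peaks at Fox genes overlapped, and 41.7% of replicate 1 peaks did. The share of replicate 2 peaks that overlapped was 52.9% under a reciprocal overlap of 50% and 70.6% for summits within 100 bp. Under the reciprocal overlap the share of replicate 1 peaks was 11.4%, against 19.0% as reported and within its interval. The median highest fold of Fox genes minus that of all genes in replicate 1 was 3.67, and 1.29 as the difference of medians over single peaks, with all peaks pooled. In replicate 2 it was 0.30, and 0.10 at a −log10 q of at least 5, 0.74 at a distance of 2000 bp, 0.74 without recurring values and −0.74 over single peaks, where it reversed. The cause was not tested. No paired analysis was possible because only one group was analysed and no comparison between groups was made. An alternative by exon length was not run, since the annotation used here gives no exons. With the read depth unknown, a missing replicate 2 peak does not show that a site was unmethylated.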

Other observations

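Genes that work with Fox proteins were read in the same lists. Of 34 genes of FoxO and insulin signalling, 20 had a replicate 1 peak (58.8%, against 41.3% of protein-coding genes) and 8 a peak in both (23.5%, against 16.1%). These 8 were Cdkn1b, Igf1r, Insr, Irs2, Pik3cb, Pik3r1, Pik3r2 and Trib1. The highest fold of Trib1 was 12.1 in replicate 1 and 12.5 in replicate 2. Cdkn1b, a cell cycle inhibitor and FoxO target, had 6.003 and 14.2, Pik3cb 3.88 and 10.8, and Irs2, an insulin receptor substrate, 8.76 and 8.01. Akt1 and Akt2, whose kinases phosphorylate FoxO proteins, had no peak in replicate 1.

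Foxh1, which recruits Smad proteins to Nodal targets, had no peak itself. Of 18 Nodal pathway genes and Foxh1 partners, 14 had a replicate 1 peak (77.8%, against 41.3% of protein-coding genes) and 4 a peak in both (22.2%, against 16.1%). Eomes had highest folds of 9.48 and 8.95, Ski 8.93 and 3.795, Smad3 17.2 and 6.09, and Lefty2 9.26 and 6.35. Of 21 genes of the Foxm1 mitotic programme, 10 had a replicate 1 peak (47.6%, against 41.3%) and 5 a peak in both (23.8%, against 16.1%). Lin9 had 8.61 and 9.56, Nek2 8.72 and 7.84, Cdc25c 2.71 and 7.75, and Lin52 2.58 and 5.66, and the fifth was Lin54. Differences of these lists from all genes were not tested.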
